A study of Homo sapiens with 6 samples.

Results

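TRIM71 and its TRIM-NHL relatives TRIM2, TRIM3 and TRIM32 were followed across 6 arrays of human HEK293 Flp-In cells. Every probeset annotated to any of the 4 genes was taken, which gave 4 probesets, 1 per gene, out of 32321 on the array. All 4 were annotated to a single gene, and 0 of the 1388 probesets annotated to several genes named a member. The first group was the TRIM71 line (3 arrays), in which FLAG-HA-tagged TRIM71 is expressed constitutively and whose medium held hygromycin B at 50 ug/ml. The second was the parental line (3 arrays), labelled wild-type, for which the labels name no hygromycin. HEK293 is an established line of human embryonic kidney origin, and Flp-In cells carry a recombination site that accepts a transgene. Whether the TRIM71 line came from 1 clone is not given in the sources used here, and transgene, drug and other differences between the lines cannot be told apart. Nothing beyond the word triplicate tells whether arrays came from separate cultures, and the spread behind each p-value may therefore be technical. Arrays of a line correlated at 0.996 to 0.997 (Pearson), and arrays of different lines at 0.991 to 0.994.

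TRIM proteins carry an N-terminal RING finger, B-box zinc fingers and a coiled coil, and the RING finger makes many of them ubiquitin ligases. The TRIM-NHL group ends in a propeller of NHL repeats, which in TRIM71 and its worm homologue LIN-41 binds RNA, so that these proteins can act on mRNAs as well as on proteins. TRIM71 is known from embryonic stem cells and neural progenitors and is repressed by the let-7 microRNAs as cells differentiate. TRIM2 and TRIM3 are best known from neurons, and TRIM32 from muscle, where its mutation causes a limb-girdle muscular dystrophy.

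Some of the microRNAs that act on TRIM71 mRNA are shown because the arrays carried probesets for their precursors, whose values are given further down. The sequences of let-7c, let-7e, let-7f and miR-98 are not printed. Mature sequences are from RefSeq (GRCh38.p14), with the seed, bases 2 to 8, in capitals. The 8 mature let-7 family members with a measured precursor shared the seed GAGGUAG and differed downstream of it or at the first base, while miR-125a and miR-125b shared CCCUGAG.
let-7a-5p (chromosome 9 and chromosome 11): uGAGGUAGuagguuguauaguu
let-7d-5p (chromosome 9): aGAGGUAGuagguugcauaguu
let-7g-5p (chromosome 3): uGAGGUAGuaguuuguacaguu
let-7i-5p (chromosome 12): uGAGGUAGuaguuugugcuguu
miR-125a-5p (chromosome 19): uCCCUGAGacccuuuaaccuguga
miR-125b-5p (chromosome 11 and chromosome 21): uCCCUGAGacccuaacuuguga

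TRIM71, on chromosome 3, was the member that changed. Values throughout are log2 expression as deposited after RMA, a background correction, quantile normalization and probe summary. The TRIM71 probeset (8078435) read 10.64, 10.86 and 10.72 in the TRIM71 line, against 7.23, 7.54 and 7.44 in the parental line. The groups did not overlap, and the gap between the lowest TRIM71-line array and the highest parental array was far wider than the spread within either line. The mean was 10.74 ± 0.11 in the TRIM71 line and 7.40 ± 0.16 in the parental line (SD, n = 3 each). The log2 fold change was 3.33 (SE 0.10, limma adjusted p = 6.8e-05), or 10.1-fold with a 95% interval of 8.55 to 11.9. An exact permutation test, two-sided, gave p = 0.1, which is as low as 3 arrays against 3 can go. Among all other probesets, 0 rose by more, while the lowest log2 fold change of any gene was −4.32.

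The rise sets a known transgene against its absence, so it checks the labels of the lines: all 3 arrays labelled TRIM71 were high and all 3 labelled parental were low. The annotation does not say which part of the mRNA the probes cover, so transcripts of the transgene and of the cells' own TRIM71 gene are read together and cannot be told apart. RefSeq lists 1 TRIM71 transcript. The parental level lay above 6.94, the median of the probesets' mean levels, but no detection call comes with these values, and whether parental cells express TRIM71 was not tested. Fold changes of dim probesets are compressed on this scale.

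**Figure D1:**
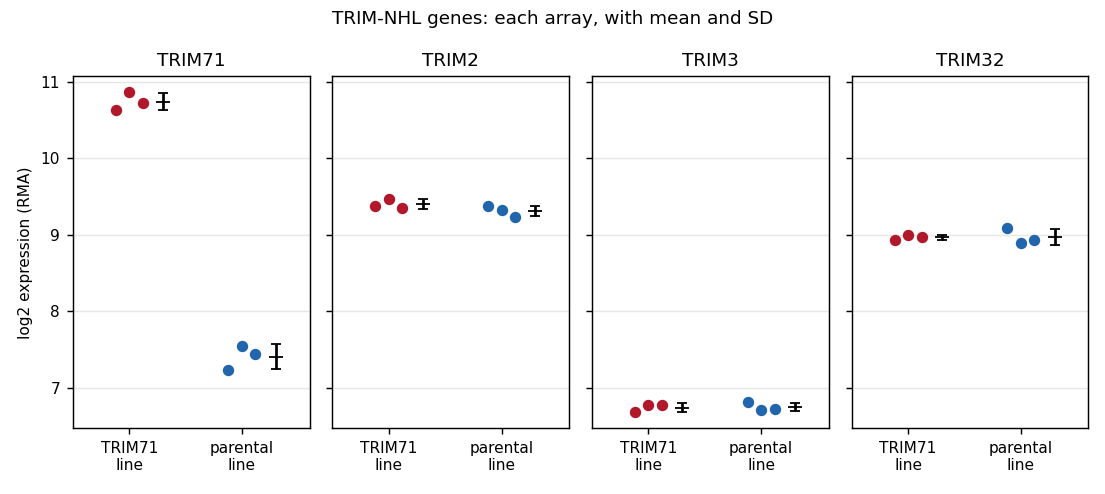
Log2 expression (RMA) of the 4 TRIM-NHL genes in each array, with the TRIM71 line in red on the left and the parental line in blue on the right of each panel. Points are single arrays and black bars the mean ± SD of 3. TRIM71 sits at 10.64 to 10.86 in the TRIM71 line and at 7.23 to 7.54 in the parental line, while the other 3 genes overlap between lines. Brightness differs between probesets for reasons of probe design, so panels are not to be ranked against each other.

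TRIM2, TRIM3 and TRIM32 did not pass the test. Of all 32321 probesets, 7.95% were called higher and 8.28% lower at an adjusted p under 0.05, and the 2 groups did not overlap for 35.2%. Of the 4 TRIM-NHL probesets 1 was called, 1 had groups that did not overlap, and both statements refer to TRIM71.

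TRIM2, on chromosome 4, is a ligase reported to act on neurofilament light chain in neurons. It read 9.38, 9.47 and 9.35 in the TRIM71 line, against 9.37, 9.32 and 9.23 in the parental line. The third TRIM71-line array lay just below the first parental array, so the groups overlapped, with the other 2 TRIM71-line arrays above every parental array. The log2 fold change was 0.09 (SE 0.06, limma adjusted p = 0.39), and its 95% interval, in folds, ran from 0.963 to 1.18. RefSeq lists 36 TRIM2 transcripts, predicted ones included, and a single probeset cannot separate them.

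TRIM3, on chromosome 11, is a ligase of synapses and of endosomal traffic, and a reported brake on growth in glioma. It read 6.68, 6.77 and 6.77 in the TRIM71 line, against 6.81, 6.71 and 6.72 in the parental line. The lowest and the highest of the 6 values, 6.68 and 6.81, were the first replicates of the TRIM71 and of the parental line. The log2 fold change was −0.01 (SE 0.05, limma adjusted p = 0.95), with a 95% interval in folds of 0.909 to 1.09. The probeset was the only member below the median of all probesets.

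TRIM32, on chromosome 9, read 8.93, 9.00 and 8.97 in the TRIM71 line, against 9.08, 8.89 and 8.93 in the parental line. The parental arrays held both the highest and the lowest value, with an SD of 0.10 against 0.03 in the TRIM71 line. The log2 fold change was 0.00077 (SE 0.06, limma adjusted p = 0.996), with a 95% interval in folds of 0.899 to 1.11. Its sign turned negative when arrays were centred on their medians or quantile normalized again, so no direction can be read from it. RefSeq lists 5 TRIM32 transcripts and 11 of TRIM3.

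The intervals describe the precision of the fit for the 3 relatives. They rest on the spread between arrays of a line, which may be technical, so larger changes are not excluded. A fall of TRIM2 below 0.963-fold or a rise above 1.18-fold lay outside its interval, as did changes of TRIM32 beyond 0.899-fold and 1.11-fold. Within each array, the difference between TRIM71 and a relative was compared as well, since a shift common to the array drops out of it. The change of TRIM71 exceeded that of TRIM2 by 3.24 (log2), that of TRIM3 by 3.34 and that of TRIM32 by 3.33. In each of the 3 comparisons every TRIM71-line array lay above every parental array. The exact permutation p was 0.1, also after adjustment over the 3, which is again the smallest possible value. All 3 comparisons use the same TRIM71 values, so this separation follows from the TRIM71 rise and adds no support to it.

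Among the parental arrays, replicate 1 had the lowest TRIM71 value and the highest values of TRIM2, TRIM3 and TRIM32. The array median of that replicate was 6.898, the lowest of the 6, where the other 5 lay at 6.92 to 6.97. Without it the TRIM71 log2 fold change was 3.25, and over all 6 arrays left out in turn it stayed between 3.25 and 3.40. With each array centred on its median, the log2 fold changes were 3.33 for TRIM71, 0.086 for TRIM2, −0.012 for TRIM3 and −0.0038 for TRIM32. The part of the array median in the values of single arrays was not tested. Among the TRIM71-line arrays, replicate 2 was the highest for TRIM71, TRIM2 and TRIM32.

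The 5 genes whose levels ran most like TRIM71 across the 6 arrays were ranked by the root mean square difference between log2 values centred on each gene's mean. IFI16, a sensor of foreign DNA, was nearest at 0.29. It read 8.76, 8.95 and 8.89 in the TRIM71 line, against 6.10, 6.10 and 6.05 in the parental line. APOBEC3B, a DNA cytidine deaminase, followed at 0.39, with 9.83, 10.00 and 9.88 in the TRIM71 line, against 7.41, 7.33 and 6.73 in the parental line. CALCB, a calcitonin gene-related peptide, stood at 0.43, F2RL2, a thrombin receptor family member, at 0.64 and HAS2, a hyaluronan synthase, at 0.66. In 4 of these 5 genes, as in TRIM71, the second TRIM71-line array was the highest, with HAS2 the exception. With 2 clusters of 3 arrays this measure mainly ranks genes by the size of their difference between lines, and it is given as a description with no test.

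Genes next to the members on their chromosomes were set beside them, taking the 3 nearest measured genes on each side by RefSeq order and any gene that overlapped. Over all 18404 genes that a single-gene probeset represented, 10.0% were called higher and 12.2% lower. Of the 6 neighbours of TRIM71, 1 was called higher and 2 lower, with log2 fold changes between −0.32 and 0.35. CNOT10, a subunit of the CCR4-NOT deadenylase and the nearest gene on one side, fell by 0.32 (limma adjusted p = 0.021), with 9.18, 9.15 and 9.19 in the TRIM71 line, against 9.60, 9.48 and 9.39 in the parental line. That call ended without parental replicate 2 or any 1 of the 3 TRIM71 replicates (adjusted p between 0.052 and 0.072). DYNC1LI1, a dynein light intermediate chain, was called higher by 0.21, just inside the threshold of 0.05 (limma adjusted p = 0.04996), and lost that call with any 1 array left out (0.062 to 0.15). CMTM6, a membrane protein that stabilises PD-L1, fell by 0.30 (adjusted p = 0.017), a call that ended without parental replicate 3, TRIM71 replicate 2 or TRIM71 replicate 3 (0.055 to 0.060).

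On the other side, the chemokine receptor CCR4 (0.08, limma adjusted p = 0.69), the lysosomal galactosidase GLB1 (0.17, 0.091) and TMPPE (0.35, 0.054) did not pass. TMPPE and GLB1 were called higher with an intensity trend (0.033 and 0.034) and without dim probesets (0.022 and 0.034), and TMPPE with further quantile normalization (0.041), so the count of neighbours called higher ran up to 3. None of the 6 neighbours came near the 3.33 of TRIM71. Of the 7 neighbours of TRIM2, limma called 0, with 2 at an unadjusted p under 0.05, against 6707 of all 18404 genes. These 2 were ANXA2P1, a pseudogene that overlaps TRIM2 (0.35, adjusted p = 0.072), and MND1, a meiotic recombination factor (0.22, 0.16). The other 5, FHDC1, ARFIP1, TIGD4, TMEM131L and the innate immune receptor TLR2, differed by −0.12 to −0.03. Of the 6 neighbours of TRIM3, 2 fell, both on one side: SMPD1, the acid sphingomyelinase (−0.38, adjusted p = 0.0061), and APBB1, an adaptor that binds the amyloid precursor protein (−0.28, adjusted p = 0.038), whose call ended with any 1 array left out (0.072 to 0.098). HPX, ARFIP2, TIMM10B and DNHD1 did not pass (−0.19 to 0.22). Of the 7 neighbours of TRIM32, limma called 0, with 2 at an unadjusted p under 0.05, which were PAPPA, a secreted metalloproteinase (0.27, adjusted p = 0.085), and the neuronal gene BRINP1 (−0.18, 0.16). PAPPA-AS1, LINC00474, SNORA70C and the endotoxin receptor TLR4 differed by −0.16 to 0.12. ASTN2, a neuronal membrane protein whose gene overlaps TRIM32, differed by 0.08 (adjusted p = 0.74), and whether probes of either gene read the other was not tested.

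**Figure D2:**
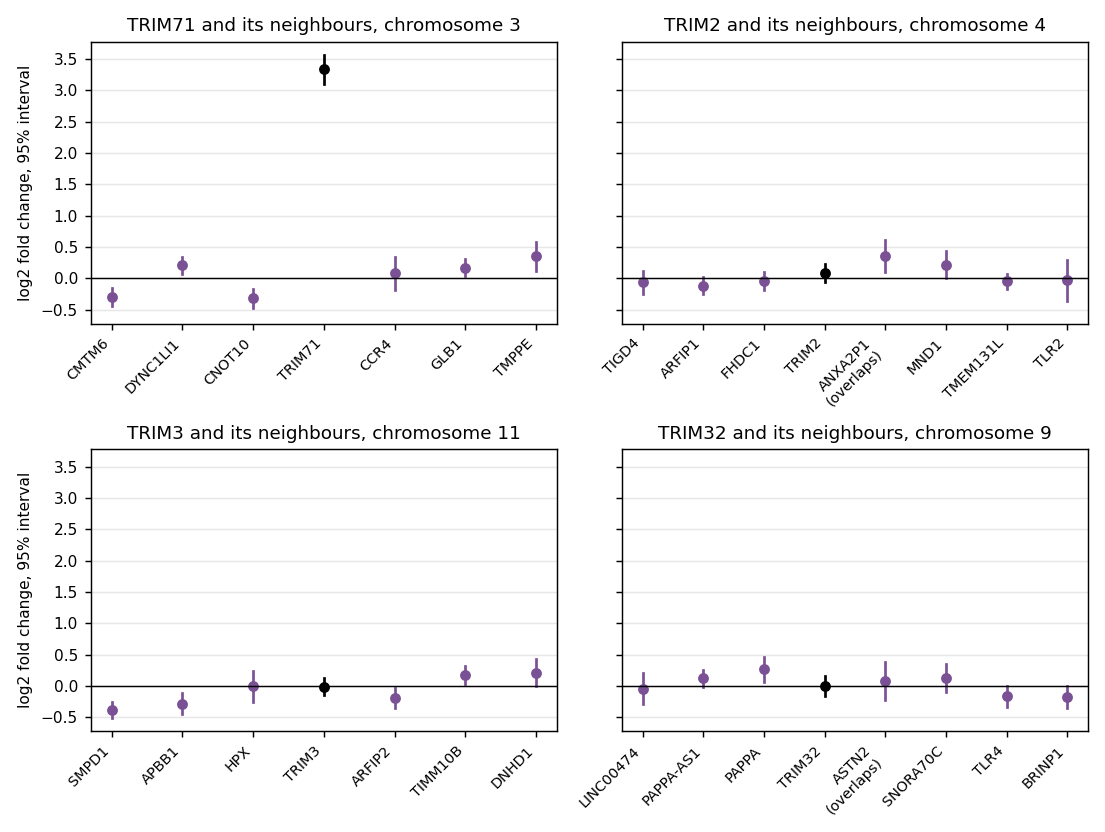
Log2 fold change of the TRIM71 line over the parental line, with its 95% interval from the limma fit, for each TRIM-NHL gene (black) and its measured neighbours (purple) in chromosome order, evenly spaced and not to genomic scale. TRIM71 stands at 3.33 and its 6 neighbours between −0.32 and 0.35.

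The rest of the TRIM family was described for comparison, grouped mostly by what replaces the NHL repeats at the C-terminus. Genes without a RING finger were kept as a separate group, whatever their C-terminus. Of 67 listed genes, 54 had a single-gene probeset, and 13, among them TRIM6, TRIM13 and TRIM23, did not and were not analysed here. Of the 54, 3 were called higher (5.56%, against 10.0% of all genes) and 10 lower (18.5%, against 12.2%), and 41 did not pass. The median log2 fold change was −0.06, against −0.01 over all genes. All 54 lay between −0.56 and 0.48, so none of them approached the change of TRIM71.

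The subfamily with a COS box and fibronectin domain, whose proteins bind microtubules, had members that changed in both directions. MID1, mutated in Opitz syndrome, read 11.81, 11.80 and 11.80 in the TRIM71 line, against 11.35, 11.32 and 11.30 in the parental line (log2 fold change 0.48, limma adjusted p = 0.0013). Its close relative MID2 read 9.00, 9.22 and 9.21 in the TRIM71 line, against 9.72, 9.65 and 9.59 in the parental line (−0.51, adjusted p = 0.0067). TRIM36, a centrosomal ligase, rose by 0.30 (adjusted p = 0.012), and TRIM9, a neuronal ligase, fell by 0.21 (0.026). The TRIM9 call held only without parental replicate 1 and ended with each of the other 5 arrays left out (adjusted p 0.071 to 0.096). TRIM46 and TRIM67 did not pass.

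The SPRY subfamily, which includes many antiviral proteins, had 25 measured genes as listed here, with genes without a RING finger left out. Of the 25, 4 fell (16%, against 12.2% of all genes), 0 rose (against 10.0%) and 21 did not pass. TRIM25, the ligase that activates the RNA sensor RIG-I, read 9.93, 9.99 and 9.91 in the TRIM71 line, against 10.28, 10.29 and 10.35 in the parental line (−0.36, limma adjusted p = 0.0051). TRIM15 fell by 0.49 (0.014), TRIM68, a coactivator of the androgen receptor, by 0.34 (0.014) and TRIM41 by 0.22 (0.043). The TRIM15 call ended without parental replicate 2 or 3 (0.055 and 0.050), that of TRIM68 without TRIM71 replicate 1 (0.055), and that of TRIM41 with each array left out except parental replicate 3 (0.087 to 0.13). TRIM5 (−0.02), TRIM21 (−0.07) and TRIM22 (−0.02), interferon-inducible restriction factors and an antibody receptor, did not pass. Some SPRY genes passed only under other settings. TRIM62 (0.21) was called higher without dim probesets (limma adjusted p = 0.024). TRIM27 was called lower with further quantile normalization (0.041), an intensity trend (0.015) and without dim probesets (0.019). TRIM26 was called lower without dim probesets (0.036) and TRIM10 with further quantile normalization (0.047).

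Among TRIM genes without a RING finger, TRIM14, an adaptor of mitochondrial antiviral signalling, had the largest difference of the 54. It read 8.75, 8.82 and 8.80 in the TRIM71 line, against 9.37, 9.32 and 9.35 in the parental line (−0.56, limma adjusted p = 9.5e-04). TRIM44 fell by 0.37 (0.016), a call that ended without parental replicate 2 (0.064) or TRIM71 replicate 1 (0.058). Of the genes with other or no C-terminal domains, TRIM37, a centrosome regulator mutated in mulibrey nanism, read 10.25, 10.34 and 10.30 in the TRIM71 line, against 9.92, 9.86 and 9.94 in the parental line (0.39, adjusted p = 0.0043). TRIM45 fell by 0.48 (0.0072) and TRIM52 by 0.29 (0.016), with the TRIM52 call ending without parental replicate 2, TRIM71 replicate 1 or TRIM71 replicate 3 (0.051 to 0.066). The bromodomain cofactors TRIM24, TRIM28 and TRIM33 differed by −0.02 to 0.06. Limma called 0 of them, with 0 at an unadjusted p under 0.05, against 6707 of all 18404 genes. The 3 muscle RING finger genes, TRIM54, TRIM55 and TRIM63, gave the same counts, all dimmer than the median probeset. Of the 13 TRIM calls, 7 held with every single array left out, and the 10 called lower became 5 without parental replicate 2 and 6 without TRIM71 replicate 1.

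**Figure D3:**
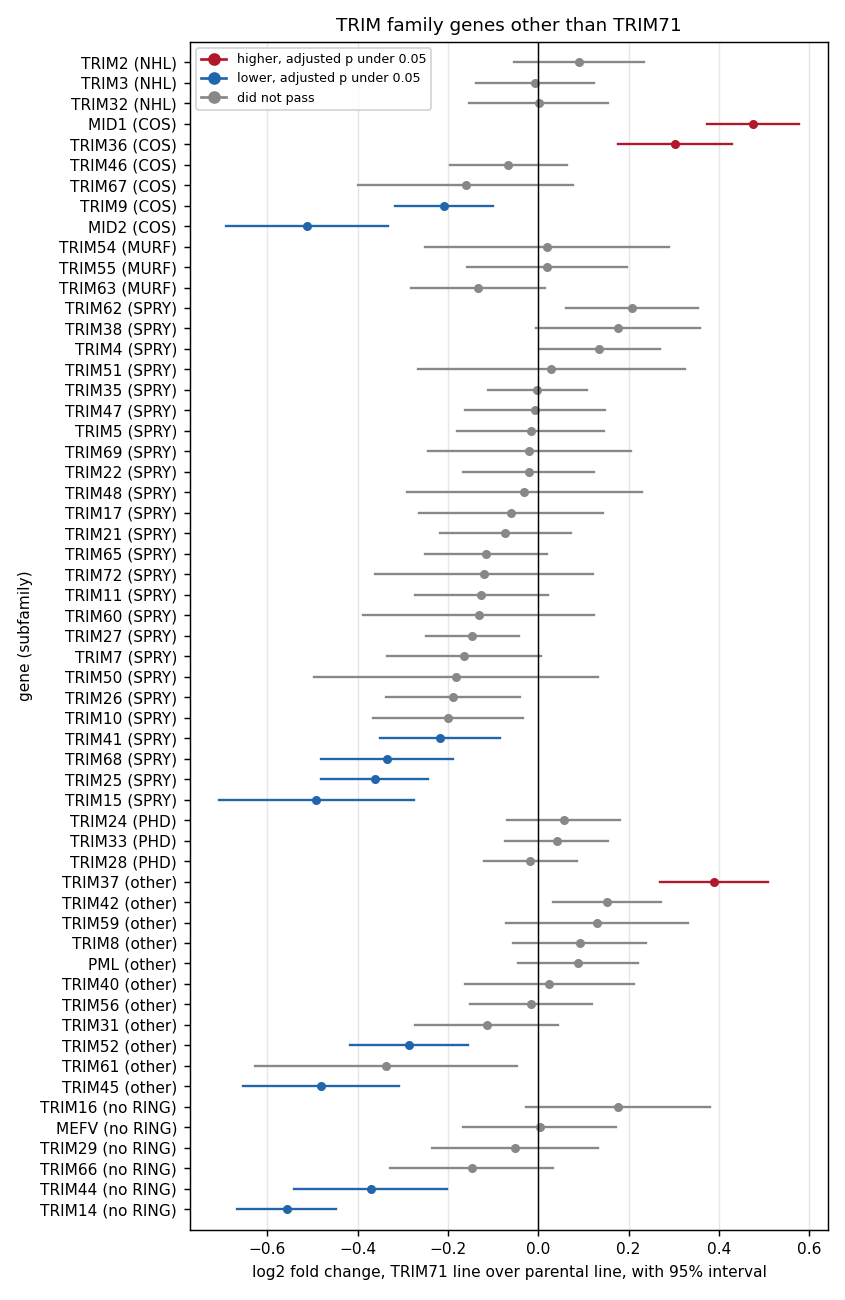
Log2 fold change (TRIM71 line over parental line) with 95% interval for TRIM2, TRIM3 and TRIM32, then 54 other TRIM family genes by subfamily. Red genes were called higher, blue genes lower and grey genes did not pass an adjusted p of 0.05. The 3 NHL relatives sit at −0.01 to 0.09, and the 54 others at −0.56 to 0.48, with TRIM71 (3.33) off this scale and left out.

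NHL repeats also occur in proteins outside the TRIM family. Of 9 such genes, 1 was called higher (11.1%, against 10.0% of all genes) and 2 lower (22.2%, against 12.2%). TENM1, a teneurin, or synaptic adhesion protein, read 5.75, 5.95 and 6.10 in the TRIM71 line, against 7.25, 7.18 and 7.19 in the parental line (−1.27, limma adjusted p = 6.3e-04), and its relatives TENM2 (−0.07), TENM3 (0.08) and TENM4 (0.13) did not pass. NHLRC1, the ligase malin of Lafora disease, fell by 0.56 (0.025), a call that ended without parental replicate 2, parental replicate 3, TRIM71 replicate 1 or TRIM71 replicate 2 (0.058 to 0.079). PAM, which amidates peptide hormones, rose by 0.34 (0.016), a call that ended without TRIM71 replicate 1 or 2 (0.055 and 0.058). NHLRC2, NHLRC3 and NHLRC4 differed by −0.16 to −0.09 and did not pass.

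Genes reported to work with TRIM71 changed little except LIN28B. LIN28B, an RNA-binding protein that blocks let-7 maturation and a reported target of TRIM71's ligase activity, read 10.02, 10.13 and 10.01 in the TRIM71 line, against 9.70, 9.59 and 9.47 in the parental line. Its log2 fold change was 0.47 (limma adjusted p = 0.0082). Every TRIM71-line array was above every parental array, but the 2 groups also did not overlap for 8019 of all 18404 genes. LIN28A was dim at both of its probesets and did not pass (0.13, adjusted p = 0.40, and 0.10, 0.36). SHCBP1, a reported protein partner in mouse, was called higher by 0.20 (0.032) but in none of the 6 fits that left out 1 array (0.073 to 0.10). AGO2, the microRNA effector that TRIM71 has been reported to bind, did not pass (0.02, 0.89) and turned sign with further quantile normalization, nor did the nonsense-mediated decay factors SMG1 (0.21, 0.054) and UPF1 (−0.23, 0.052). Both lay near the threshold and passed it with an intensity trend (0.016 and 0.023), without dim probesets (both 0.018) and with array weights (0.048 and 0.035), and UPF1 also with further quantile normalization (0.037). Over the 6 measured partners, 2 were called higher and 0 lower.

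None of the 13 let-7 and miR-125 precursor probesets, nor that of the let-7b host gene MIRLET7BHG, was called by limma. At an unadjusted limma p under 0.05 were 0 of the 14, against 6707 of all 18404 genes. Their log2 fold changes ran from −0.15 to 0.20, with a median of 0.02. The precursor of let-7g, whose mature sequence is given above, differed most in the positive direction (0.20, limma adjusted p = 0.39). It read 6.56, 6.57 and 6.35 in the TRIM71 line, against 6.53, 6.04 and 6.32 in the parental line. MIRLET7I read 6.74, 6.77 and 7.26 in the TRIM71 line, against 6.61, 6.87 and 6.86 in the parental line (0.14, adjusted p = 0.61). Both ranges overlapped. Such a probeset reads the hairpin region of the precursor, not the mature microRNA, most of them were dim, and near-identical copies may read each other's RNA. Mature let-7 was therefore not measured.

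NEFL and BCL2L11 were the listed TRIM2 substrates. Of all measured substrates and partners of the relatives, NEFL showed the largest difference. NEFL, the neurofilament light chain, read 10.91, 10.97 and 11.00 in the TRIM71 line, against 12.41, 12.44 and 12.37 in the parental line, a 0.367-fold level (log2 fold change −1.45, limma adjusted p = 9.5e-05). BCL2L11, which encodes the pro-apoptotic protein BIM, read 9.16, 9.17 and 9.09 in the TRIM71 line, against 8.69, 8.73 and 8.81 in the parental line (0.40, adjusted p = 0.0052). Neither pair of groups overlapped, which also held for 8019 of all 18404 genes. The mRNA of TRIM2 itself did not pass. Ligases act on the protein, which arrays do not measure.

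Of 5 measured TRIM3 substrates and partners, 1 fell. CDKN1A, which encodes the CDK inhibitor p21, read 7.37, 7.34 and 7.60 in the TRIM71 line, against 7.91, 8.04 and 7.97 in the parental line (−0.54, limma adjusted p = 0.0074); its mRNA is also a reported target of TRIM71. The kinesin KIF21B (−0.17, adjusted p = 0.053), the actin cross-linker ACTN4 (−0.15, 0.064), the myosin MYO5B (−0.11, 0.37) and the endosomal sorting protein HGS (−0.02, 0.84) did not pass. Of 3 measured TRIM32 substrates, MYC, a growth-promoting transcription factor, read 10.02, 10.08 and 9.98 in the TRIM71 line, against 10.62, 10.63 and 10.58 in the parental line (−0.58, adjusted p = 0.0011). PIAS4, a SUMO ligase, rose by 0.23 (0.020), a call that ended without parental replicate 2, parental replicate 3, TRIM71 replicate 1 or TRIM71 replicate 3 (0.060 to 0.079), and DTNBP1, the dysbindin gene, did not pass (0.02, 0.85). DLGAP1 and ABI2 had no single-gene probeset and were not analysed here. Over all 16 measured partners and substrates, 4 were called higher (25%, against 10.0% of all genes) and 3 lower (18.8%, against 12.2%), with a median of −0.00055. The 4 called higher became 2 without parental replicate 2, TRIM71 replicate 1 or TRIM71 replicate 3, and the 3 called lower became 5 with further quantile normalization, an intensity trend, the filter on dim probesets or array weights, and 6 with averaged probesets.

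**Figure D4:**
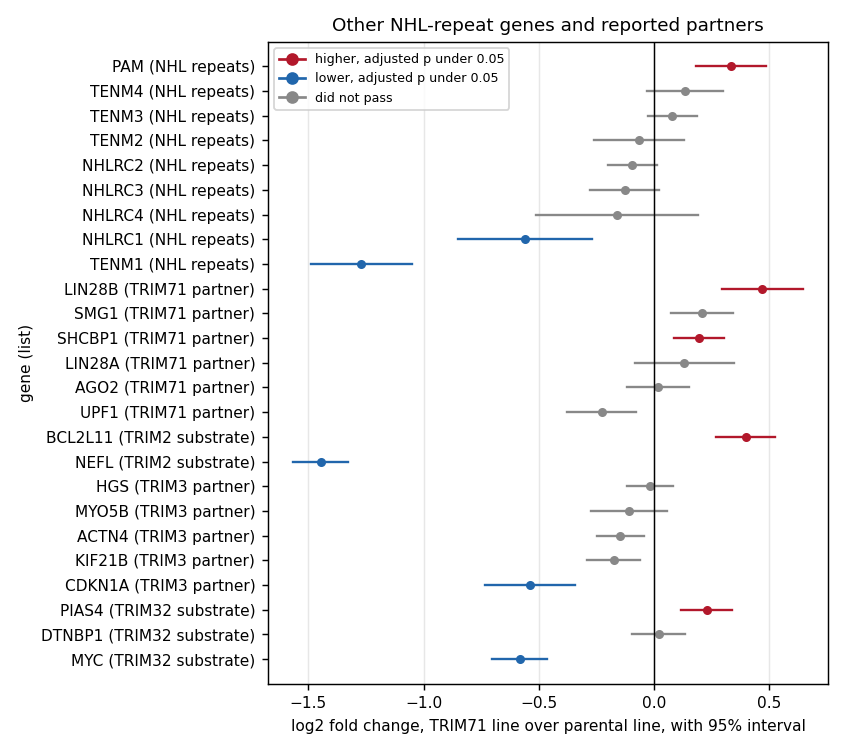
Log2 fold change (TRIM71 line over parental line) with 95% interval for 9 NHL-repeat genes outside the TRIM family and 16 reported partners and substrates of TRIM71, TRIM2, TRIM3 and TRIM32. Red genes were called higher, blue genes lower and grey genes did not pass an adjusted p of 0.05. TENM1 (−1.27) and NEFL (−1.45) lie farthest below 0 and LIN28B (0.47) farthest above it.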

How the data were processed

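The deposited values were log2 expression, 1 column per array, made by the authors with RMA and affy, per the submitters' processing notes, which name no version and no genome build. RMA sets arrays to a common distribution, so a change in total mRNA per cell cannot be seen. The number of arrays limits the precision. Of 32321 probesets, 19158 had 1 gene symbol, from GEO's platform annotation, and 19128 matched RefSeq (GRCh38.p14) by gene ID. RefSeq coordinates set only gene order, from which the 3 nearest measured genes on each side of a member were taken as neighbours. A gene was represented by its brightest single-gene probeset (18404 genes). All probesets were fitted together with limma 3.58.1 in R 4.3.3 (lmFit, eBayes), with Benjamini-Hochberg adjustment over all of them; called means an adjusted p under 0.05.

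Members, lists and tests were chosen with earlier results of these data known. Named were all members, partners, substrates, neighbours and the 5 most similar genes, and every called gene of a list with up to 6 calls. TRIM5, TRIM21, TRIM22 and a few other genes that did not pass were named after their values were seen, and the microRNA precursors were added after seeing the data. The fit was tested on simulated data. Alternatives were 2 normalizations, an intensity trend, a filter on dim probesets, a replicate block, array weights, mean probesets per gene and each array left out.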

Additional observations from a re-analysis of the deposited data

How the results depend on the processing

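TRIM71 stayed called under all 12 alternatives (log2 fold change 3.25 to 3.40, adjusted p at most 0.0014), and TRIM2 passed under none (0.05 to 0.12). TRIM3 and TRIM32 passed under none either, but their signs turned. TRIM3 stood at 0.024 without parental replicate 1 or TRIM71 replicate 1, ranging from −0.025 to 0.024 with 1 array left out, and the filter on dim probesets removed it. TRIM32 stood at −0.0017 with further quantile normalization and −0.0038 with median centring, and ranged from −0.038 to 0.058 with 1 array left out. The differences between TRIM71 and the relatives were 3.26, 3.34 and 3.33 after quantile normalization.

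With 1 array left out, 1320 to 2077 probesets were called higher and 1566 to 2026 lower, and 979 to 1484 genes higher and 1336 to 1710 lower; the number of genes called higher fell by over 1.5 times when parental replicate 2 (994 left) or 3 (1185 left) or TRIM71 replicate 1 (1121 left) or 2 (979 left) was omitted. Of the other TRIM genes, 3 were then called higher in every such fit and 5 to 9 lower, and of the NHL-repeat genes 0 to 1 higher and 1 to 2 lower. The filter on dim probesets left 0 NHL-repeat genes called lower, because TENM1 and NHLRC1 fell below it, and averaging the probesets of a gene gave 5 TRIM genes higher.

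Arrays of the 2 lines share replicate numbers, but deviations of same-numbered arrays correlated at 0.07, −0.19 and 0.11, and 2 of 6 arrays correlated best with their own number, so the numbers were not taken as pairs. With the replicate block, 1512 probesets were called higher and 1615 lower, and 1019 genes higher and 1371 lower. Of the other TRIM genes 2 were then called higher and 5 lower, while TRIM71 kept its call (limma adjusted p = 0.0014). TRIM36 (0.057), TRIM9 (0.081), TRIM15 (0.060), TRIM41 (0.0998), TRIM44 (0.061) and TRIM68 (0.053) lost theirs. The number of neighbours of TRIM71 called higher was 0 with the block or median centring, 2 with quantile normalization and 3 with the intensity trend, the filter or averaged probesets.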
